A study of Homo sapiens with 9 samples.

Results

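The zinc finger genes of human chromosome 19 were followed by symbol and position in SKMEL28 melanoma cells. A gene was a member when its symbol was ZNF followed by digits and at most 1 letter and the deposited tables placed it on chromosome 19, which gave 272 of the 48162 genes (261 distinct symbols, of which 11 stood in 2 rows). Of these, 205 passed edgeR's filter on low counts and were tested, while 67 were not, among them 12 without a single read in any library and 38 with fewer than 10 reads in all. The members lay between positions 2819872 and 58992597 of the chromosome in the coordinates of the deposited tables, 125 of them on the minus strand, and were divided into 17 blocks wherever 1000000 bases or more separated neighbours.

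SKMEL28 is an established line of human melanoma cells. The cells carried lentiviral hairpins against GFP as the control (shCont), against p16, the product of CDKN2A (shp16), or against both p16 and the checkpoint kinase ATR (shp16+shATR), and every group was selected in puromycin at 1 ug/ml for 3 days. Bulk RNA was sequenced in 9 libraries, 3 per group, with total counts between 17314662 and 23588174. No source used here says whether the libraries of a group came from separate infections. The paper describes its plot of LSS mRNA as 1 experiment with 3 technical replicates, and the legend names no assay. The p-values below therefore measure only the spread between these libraries, which may be technical.

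Most proteins of this family carry an array of fingers that read DNA sequence, and many join it to a KRAB domain, which recruits the scaffold TRIM28 and with it the methyltransferase SETDB1, heterochromatin proteins and deacetylases. They are best known as repressors of transposable elements. The genes arose by repeated duplication and stand in tandem clusters along chromosome 19, where neighbours are often close relatives in sequence.

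The targets of the hairpins come first. CDKN2A had 162, 113 and 103 CPM (reads scaled to library size after TMM normalization) in shCont replicates 1, 2 and 3, 78.1, 93.5 and 99.9 in the shp16 libraries and 82.6, 90.0 and 82.4 in shp16+shATR. The shCont libraries lay above all others, but the fall in shp16 did not pass edgeR's quasi-likelihood test (log2 fold change −0.48, standard error 0.16, adjusted p = 0.0723). ATR had 93.5 and 96.4 CPM in shCont replicates 2 and 3, between 83.4 and 93.5 in shp16 and between 39.9 and 41.0 in shp16+shATR. The library labelled shCont replicate 1 had 45.9, near the level of the ATR hairpin, which goes against its label for that gene. That library differed from the other shCont libraries by a mean chi-square per gene of 68.5 and 83.4, against 5.15 between those, and the library labelled shp16 replicate 1 differed from its own group by 37.9 and 37.2, against 1.94. The counts of members called are therefore given with and without each of these 2 libraries. Markers of melanoma cells were high in all 9 libraries (SOX10 between 279 and 330 FPKM, fragments per kilobase of gene length scaled to depth), and the leukocyte genes PTPRC and CD3E had no read in any library.

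In shp16 against shCont, 26 of the 205 tested members were called higher and 31 lower (adjusted p under 0.05 in edgeR's quasi-likelihood test over 15776 genes). This was 12.7% higher and 15.1% lower, beside a background over all tested genes of 7.23% called higher and 7.59% called lower. Among zinc finger genes of the same naming on other chromosomes 7 of 231 were called higher and 17 lower, and among the remaining genes of chromosome 19 it was 26 and 77 of 900. The median log2 fold change was −0.20 over the tested members, −0.05 over the zinc finger genes elsewhere, −0.19 over the other genes of chromosome 19 and −0.02 over all genes. Members therefore moved in both directions, with 69 fitted above 0 and 136 below. Setting the 3 tested members at 0 in shCont to their lower bound could not move the median, since these bounds also lay above it. The members called higher had a median log2 fold change of 2.73 and the members called lower one of −0.76. Of the 205, 21 lay under the filter's level in at least 1 shCont library and over it in every library of a knockdown group, and 14 of the 26 rises were among these, so the rises count in part genes that could pass only by being high there. Among the 171 members over that level in all 9 libraries, 11 were called higher and 29 lower.

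**Figure D1:**
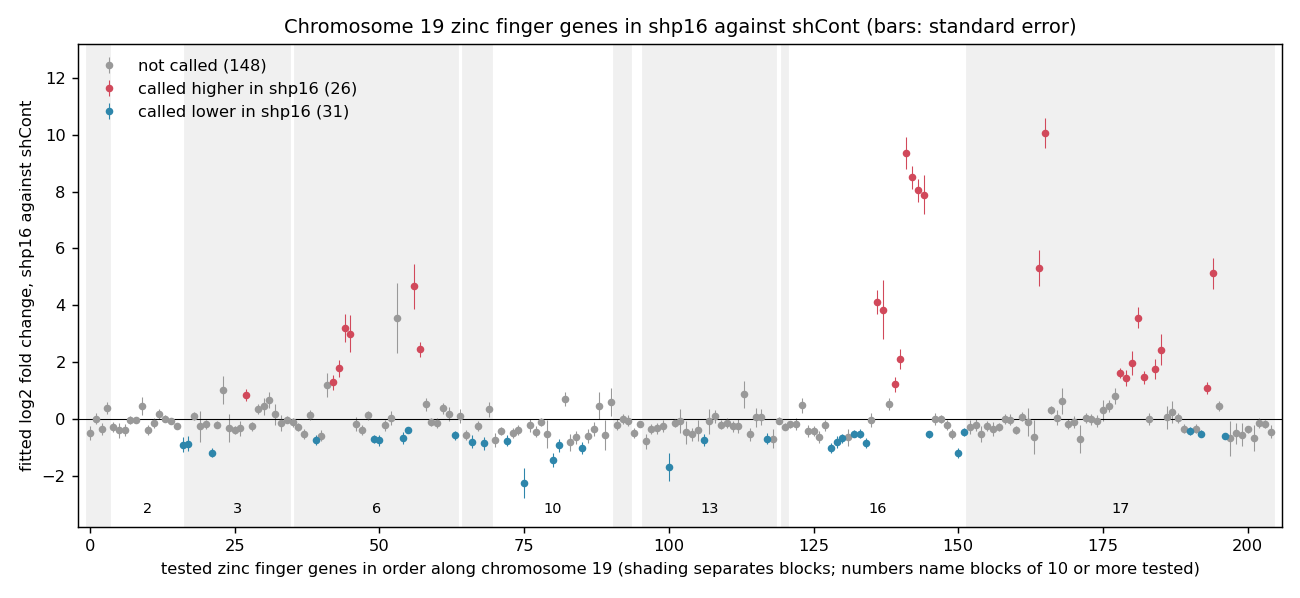
Fitted log2 fold change of shp16 against shCont (vertical axis) for the 205 tested zinc finger genes in their order along chromosome 19 (horizontal axis), with bars of 1 standard error, red for the 26 called higher, blue for the 31 called lower and shading for blocks. Rises of more than 4-fold stood in blocks 6, 16 and 17, and the heights of genes with no read in shCont depend on edgeR's prior count and measure no fold.

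The rises stood in 4 of the 17 blocks. Block 17 (ZNF628 to ZNF446, from 56.0 to 59.0 Mb) held 11 of them among 53 tested members, block 16 (ZNF175 to ZNF331, from 52.1 to 54.1 Mb) held 8 among 31, block 6 (ZNF101 to ZNF254, from 19.8 to 24.3 Mb) held 6 among 28, and block 3 held the remaining 1, ZNF844. No member was called higher in block 10 (ZNF565 to ZNF573, 21 tested), block 13 (ZNF575 to ZNF296, 23 tested) or block 2 (ZNF557 to ZNF846, 13 tested). The falls were 9 in block 16, 6 in block 6, 5 in block 10, 3 each in blocks 13 and 17, 2 each in blocks 3 and 9, and 1 in block 2. Blocks 6 and 16 thus held rises and falls side by side. Over all 15776 tested genes in chromosome order, 4 runs of at least 5 adjacent genes were called higher in shp16, and 3 of the 4 lay among the members. These were the 6 genes from ZNF611 to ZNF816 in block 16, the 5 from ZNF549 to ZNF134 in block 17, and in block 6 ZNF90, ZNF486, ZNF737 and ZNF626 with CTC-260E6.6, a gene outside the naming rule that lies between them. Runs were counted over tested genes only, so that genes low in every library drop out of the order while ZNF28, ZNF468, ZNF320, ZNF816, ZNF737 and ZNF626, with 0 to 14 reads over shCont, passed the filter through the knockdown groups. The runs are a description and were not tested. The only run of that length called lower lay on chromosome 3 and held no member.

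The largest rises came from genes that were silent or nearly so in shCont. ZNF468 (ENSG00000204604, minus strand, 53341261 to 53360902) had 0, 1 and 0 reads in the 3 shCont libraries, 164, 151 and 175 in shp16 and 131, 187 and 158 in shp16+shATR. ZNF320 (ENSG00000182986, minus strand, 53367043 to 53400946) had 2, 0 and 0 reads in shCont, 167, 223 and 225 in shp16 and 178, 208 and 170 in shp16+shATR. Every library with the p16 hairpin was high for both genes, and no shCont library came near them. As a ratio of normalized counts, ZNF468 was 500 times higher in shp16 than in shCont (95% exact counting interval 89.4 to 19796), and ZNF320 was 314 times higher (86.5 to 2598). These intervals cover counting error only. Both genes passed edgeR's quasi-likelihood test (adjusted p = 2.13e-07 and 2.95e-07). They entered that test only through the knockdown groups, where they are high, so these values are no separate support.

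ZNF28 (ENSG00000198538, minus strand, 53300662 to 53360853) had no read in any shCont library, 78, 87 and 80 in shp16 and 60, 117 and 81 in shp16+shATR. ZNF816 (ENSG00000180257, minus strand, 53430388 to 53466164) also had none in shCont, with 29, 34 and 26 reads in shp16 and 28, 42 and 37 in shp16+shATR. Against the limit that 0 reads allow (3 counts over the group), ZNF28 was at least 83.4-fold higher in shp16 and at least 89.1-fold higher in shp16+shATR, and ZNF816 at least 30.3-fold and 36.95-fold. In block 17, ZNF71 (ENSG00000197951, plus strand, 57106632 to 57137849) showed the same pattern, with no read in shCont, 152, 123 and 123 in shp16 and 82, 131 and 94 in shp16+shATR. It was at least 135-fold higher in shp16 and at least 106-fold higher in shp16+shATR. The 3 genes passed edgeR's quasi-likelihood test in shp16 (adjusted p = 6.97e-06 for ZNF28, 8.41e-05 for ZNF816 and 2.61e-06 for ZNF71). They too passed the filter on low counts only through the knockdown groups, so these values add nothing to the counts above.

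Such a pattern was rare in the whole table. Of 11956 genes with at least 30 reads in each of the 6 shp16 and shp16+shATR libraries, 5 (0.0418%) had at most 3 reads over the shCont libraries together. Of these 5, 4 were members (ZNF28, ZNF468, ZNF320 and ZNF71, among 156 members at that level), and the fifth was VCX3A on chromosome X, a gene outside the naming rule that is given here because the count is small. ZNF28 overlaps ZNF468 on the same strand, so these 4 may not be fully separate counts. In the opposite direction, 1 of 12279 genes was silent in both knockdown groups, PRKAA2 on chromosome 1, and no member was. No gene was at that floor in shp16+shATR alone.

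Markers of another cell type were also higher in the groups with the p16 hairpin than in shCont. The keratinocyte genes KRT5, KRT14 and KRT1 summed to between 0 and 0.154 CPM in shCont, between 6.19 and 14.9 in shp16 and between 2.82 and 8.88 in shp16+shATR, and all 3 were called higher in both groups against shCont by edgeR's quasi-likelihood test. KRT5 and KRT1 had no read in any shCont library. The fibroblast genes COL1A1, COL1A2 and DCN summed to between 0.150 and 0.884 CPM in shCont, between 1.14 and 3.27 in shp16 and between 1.64 and 2.64 in shp16+shATR, and none of the 3 was called in shp16, while COL1A2 and DCN were called higher in shp16+shATR against shCont (adjusted p = 0.0460 and 0.0266 by edgeR's quasi-likelihood test). The 7 melanoma genes together had between 12898 and 14285 CPM in shCont, between 7462 and 12635 in shp16 and between 10401 and 12462 in shp16+shATR. Most of this sum was PMEL, with 8075 to 10029 CPM in shCont and 3258, 7839 and 7763 in shp16 replicates 1, 2 and 3. In shp16 against shCont the log2 fold change was −0.52 for PMEL, −0.43 for TYRP1, −0.19 for TYR and −0.05 for DCT. It was 0.09 for MITF, 0.08 for MLANA and 0.03 for SOX10. Of the 7, only TYRP1 was called in shp16 (adjusted p = 0.0228 by edgeR's quasi-likelihood test). The part of other cells in the rises was not tested.

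Per length of transcript, ZNF468 and ZNF320 stood above the median of the tested members in shp16, and ZNF71, ZNF28 and ZNF816 below it. In the shp16 libraries ZNF468 had 1.82 ± 0.159 FPKM, ZNF320 1.56 ± 0.263, ZNF71 1.20 ± 0.143, ZNF28 0.776 ± 0.0418 and ZNF816 0.540 ± 0.0671 (SD, n = 3 libraries), beside a median of 1.31 FPKM over the tested members.

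The sequences of the RefSeq promoters (GRCh38.p14, 300 bases around an annotated start, 5′ to 3′ on the gene's strand) are shown for ZNF468, ZNF320, ZNF816 and ZNF71, which went from no or almost no reads to expression, and for ZNF83, a neighbour that had reads in every shCont library. No RefSeq promoter was found for ZNF28, ZNF600 or ZNF888, so theirs could not be shown. Capitals mark each CG dinucleotide, the site of DNA methylation.
ZNF468 (chr19:52857570-52857869, minus strand): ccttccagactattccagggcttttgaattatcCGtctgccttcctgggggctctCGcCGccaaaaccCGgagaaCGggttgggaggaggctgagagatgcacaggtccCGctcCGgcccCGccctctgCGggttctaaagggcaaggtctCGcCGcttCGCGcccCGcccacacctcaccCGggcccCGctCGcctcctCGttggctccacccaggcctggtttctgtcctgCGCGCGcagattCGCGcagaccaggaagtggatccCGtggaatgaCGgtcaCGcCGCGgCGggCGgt
ZNF83 (chr19:52690447-52690746, minus strand): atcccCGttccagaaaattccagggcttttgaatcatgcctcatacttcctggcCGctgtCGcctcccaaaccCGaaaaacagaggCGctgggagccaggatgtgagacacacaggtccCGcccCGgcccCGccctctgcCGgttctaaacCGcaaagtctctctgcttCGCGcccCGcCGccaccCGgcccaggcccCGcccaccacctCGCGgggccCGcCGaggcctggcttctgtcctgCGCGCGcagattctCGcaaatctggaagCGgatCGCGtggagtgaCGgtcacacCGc
ZNF320 (chr19:52897645-52897944, minus strand): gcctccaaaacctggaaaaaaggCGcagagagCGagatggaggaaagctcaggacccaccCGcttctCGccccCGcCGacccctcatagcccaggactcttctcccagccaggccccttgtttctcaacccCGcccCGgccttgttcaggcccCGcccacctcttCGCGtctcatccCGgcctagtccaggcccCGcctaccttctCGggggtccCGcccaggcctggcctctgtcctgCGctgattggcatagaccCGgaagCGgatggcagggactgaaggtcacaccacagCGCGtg
ZNF816 (chr19:52962832-52963131, minus strand): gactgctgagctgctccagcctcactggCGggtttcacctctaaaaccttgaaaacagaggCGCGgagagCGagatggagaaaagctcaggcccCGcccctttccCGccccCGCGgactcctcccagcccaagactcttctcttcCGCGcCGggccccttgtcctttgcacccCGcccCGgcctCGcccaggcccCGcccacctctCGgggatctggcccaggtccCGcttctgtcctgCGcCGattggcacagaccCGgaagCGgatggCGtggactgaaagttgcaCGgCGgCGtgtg
ZNF71 (chr19:56595052-56595351, plus strand): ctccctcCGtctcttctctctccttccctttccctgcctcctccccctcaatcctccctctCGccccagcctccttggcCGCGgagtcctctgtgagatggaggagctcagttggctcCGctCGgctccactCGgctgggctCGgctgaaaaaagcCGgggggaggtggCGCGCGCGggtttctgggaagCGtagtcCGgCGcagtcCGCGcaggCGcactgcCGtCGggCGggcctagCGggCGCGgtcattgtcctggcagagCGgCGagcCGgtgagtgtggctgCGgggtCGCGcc

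All 5 windows were rich in CG, with 30 CG dinucleotides in that of ZNF468, 29 in ZNF83, 20 in ZNF320, 25 in ZNF816 and 31 in ZNF71, beside a median of 14 over all 35116 promoters of the table. ZNF83 has another annotated start, not shown, with 22 CG dinucleotides in its window. Rich promoters were common to the family and did not mark the genes that rose. The median was 20 over the 262 promoters found for members (214 symbols), 21 for members called higher, 20 for members called lower and 20 for the other tested members. The windows of ZNF468 and ZNF83 were 76.1% identical in a global alignment (76.2% for the other start of ZNF83), although ZNF468 was near silent and ZNF83 was not in shCont. Those of ZNF468 and ZNF611 were 75.4% identical. Among the windows compared, that at 1 start of ZNF701 was closest to ZNF468, at 80.7%, against 45.0% at the other start. The window of ZNF808 was 71.2% identical to that of ZNF468. ZNF701 and ZNF808 had 1 and 9 reads over shCont and also rose in shp16. The windows of ZNF320 and ZNF816 were 64.2% identical for the start shown and 49.2% for the other start of ZNF320. Among motifs searched on either strand, CCGGAAG, the core bound by ETS factors such as GABPA, stood in 39.7% of the members' promoters and 10.3% of all promoters. It stood in 72.0% of the promoters found for members called higher (25 promoters of 23 symbols). The share was 59.0% for those called lower and 31.0% for the other tested members. Of the 5 windows shown, those of ZNF320 and ZNF816 held it and those of ZNF468, ZNF83 and ZNF71 did not. The window at the other start of ZNF83 did hold it. The letters TTTCGCGC or TTTGGCGC, bound by E2F, stood in 4.96% of members' promoters and 1.15% of all, and the CRE letters TGACGTCA in 3.05% and 1.85%. For members called higher, members called lower and the other tested members, the E2F letters stood in 8.00%, 5.13% and 3.80% of promoters. For the CRE letters it was 0%, 0% and 5.06%. These are matches of letters, and binding was not measured.

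**Figure D2:**
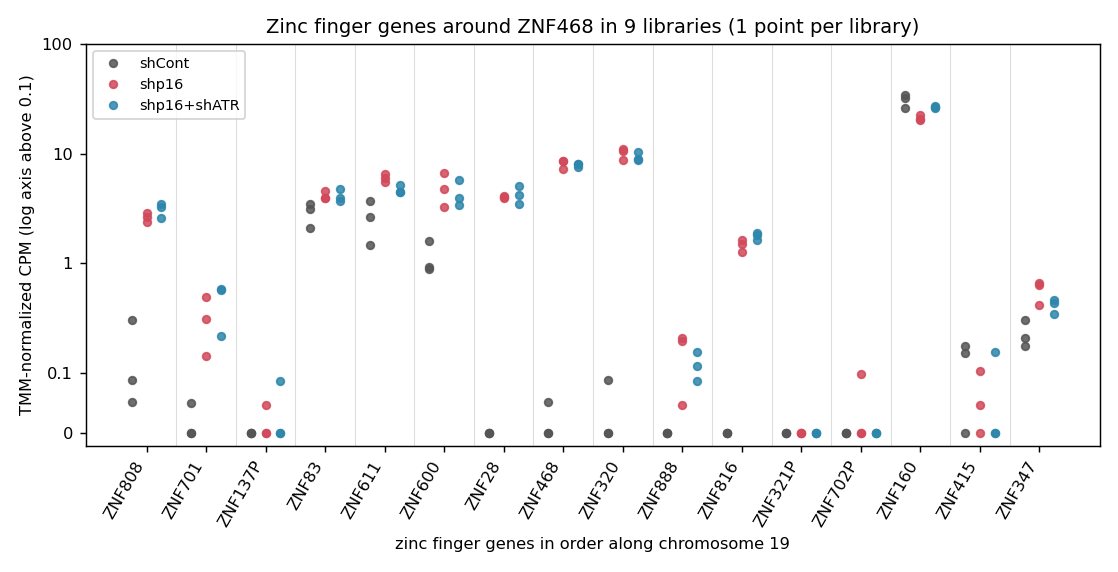
CPM of the 16 zinc finger genes nearest ZNF468 in their order along chromosome 19 (horizontal axis), with 1 point per library in grey for shCont, red for shp16 and blue for shp16+shATR, on a vertical axis that is logarithmic above 0.1. ZNF28, ZNF468, ZNF320 and ZNF816 had points at or near 0 in shCont and points above 1 in all 6 other libraries, while ZNF160 was lower in shp16 than in shCont.

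Around ZNF468 the tested members called higher followed each other without a gap from ZNF611 to ZNF816. With ZNF468 itself, 15 members start within 300000 bases of its start, and the plot of genes near ZNF468 adds ZNF808, which lies just beyond. ZNF611 had 33, 51 and 74 reads in shCont and 106, 126 and 133 in shp16, a log2 fold change of 1.22 with standard error 0.27 (adjusted p = 0.0113 by edgeR's quasi-likelihood test). ZNF600 had 20, 18 and 32 reads in shCont and 62, 141 and 98 in shp16 (log2 fold change 2.11, standard error 0.34, adjusted p = 0.00185). Both were expressed in shCont, unlike the 4 genes that follow them. ZNF808 (ENSG00000198482) had 2, 1 and 6 reads in shCont, 46, 60 and 54 in shp16 and 56, 59 and 68 in shp16+shATR, and was 18.1 times higher in shp16 (95% exact counting interval 9.32 to 40.4). ZNF701, which overlaps it, had 1 read over shCont and 19 over shp16, a ratio of 19.4 with an interval from 3.08 to 806, and its call in shp16 was lost in 7 of 17 alternative settings. Between these genes, ZNF83 rested at 2.89 ± 0.718 CPM in shCont against 4.12 ± 0.356 in shp16 and did not pass the test (adjusted p = 0.138).

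The next tested member beyond ZNF816 was ZNF160. It had 590, 626 and 691 reads in shCont and 432, 436 and 419 in shp16, and was called lower (log2 fold change −0.54, standard error 0.12, adjusted p = 0.0120 by edgeR's quasi-likelihood test). In shp16+shATR it had 26.6 ± 0.348 CPM, between 21.2 ± 1.10 in shp16 and 30.9 ± 4.36 in shCont (SD, n = 3 libraries). Its call was lost without shp16 replicate 2 or 3 and in a fit of the 2 groups alone. The other members nearby had few reads. ZNF888 had none in shCont and 4, 1 and 4 in shp16, ZNF347 had 14 over shCont and 35 over shp16, and ZNF415, ZNF137P and ZNF702P had at most 4 in any library. ZNF321P had no read in any of the 9.

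Reads of relatives can be hard to assign, and 193 of the 272 members overlap another gene in the deposited tables. Among the 26 rises 18 did, 11 of them a gene on the same strand and 10 one on the opposite strand. ZNF28 overlaps ZNF468 on the same strand, ZNF808 overlaps ZNF701, and ZNF816 overlaps ZNF321P and a readthrough gene. Whether the counting used strand is not given in the sources used here, so reads of a gene and an antisense partner cannot be told apart. Of all 100-base words in the transcripts of the tested members in GENCODE release 29, a median of 1.10% also occur in another gene, with 4 members above 50%. ZNF320 was at 71.6% and ZNF468 at 52.0%, mostly with each other, and in that release their records overlap by 26586 bases, which they do not in the deposited tables. By shared words, the values of these 2 genes are therefore less sure as separate measurements than those of ZNF71, ZNF470 and ZNF256, which shared none. ZNF71 itself overlaps AC007228.8 on the same strand in the deposited tables. ZNF28 shared 3.04%, but in that release its record overlaps that of ZNF468 by 19593 bases. The values of ZNF28 and ZNF468 may therefore not be fully separate either.

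**Figure D3:**
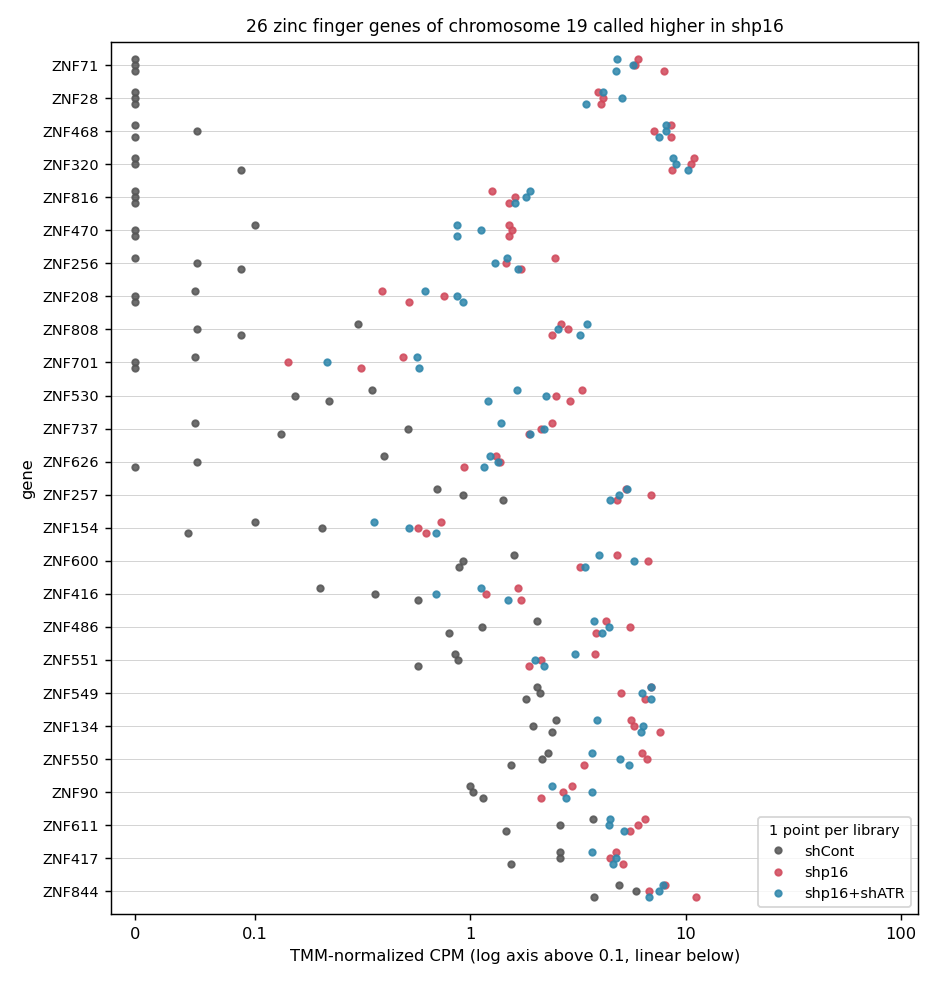
CPM in each of the 9 libraries (horizontal axis, logarithmic above 0.1) for the 26 members called higher in shp16, ordered by fitted fold change, with 1 point per library in grey for shCont, red for shp16 and blue for shp16+shATR. The grey points lie to the left, many at or near 0, and the red and blue points lie close together.

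Block 17 held more genes that rose from almost no reads. ZNF470, close to ZNF71, had 0, 0 and 2 reads in shCont, 29, 33 and 31 in shp16 and 15, 26 and 17 in shp16+shATR, and its ratio in shp16 was 47.5 (95% exact counting interval 12.8 to 398). ZNF256 had 2, 1 and 0 reads in shCont, 33, 31 and 51 in shp16 and 29, 30 and 29 in shp16+shATR (ratio 39.1, interval 13.1 to 193). In ZNF530 the ratio was 12.05 (interval 7.11 to 22.0), from 15 reads over shCont to 177 over shp16. The genes of the run from ZNF549 to ZNF134 had reads in every shCont library and rose by 1.44 to 3.56 on the log2 scale. ZNF549 had 1.81, 2.11 and 2.05 CPM in shCont, 6.49, 5.03 and 6.87 in shp16 and 6.92, 6.27 and 6.87 in shp16+shATR (log2 fold change 1.62 in shp16, standard error 0.18, adjusted p = 0.000166 by edgeR's quasi-likelihood test). ZNF134 had 2.28 CPM in shCont and 6.29 in shp16, ZNF550 had 2.00 and 5.42, and ZNF416 had 0.378 and 1.52. The other rises of this block included ZNF551, ZNF154 and ZNF417 (ENSG00000173480).

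In block 6, near the centromere, ZNF257 had 1.41, 0.925 and 0.699 CPM in shCont, 4.78, 6.88 and 5.26 in shp16 and 4.44, 4.89 and 5.33 in shp16+shATR. In shp16 its log2 fold change was 2.46, with standard error 0.26 (adjusted p = 0.000100 by edgeR's quasi-likelihood test). ZNF208 had 1 read over shCont and 34 over shp16, a ratio of 34.7 with an interval from 5.82 to 1411. ZNF737 went from 14 reads to 130, a ratio of 9.48 (5.45 to 17.8), and ZNF626 from 9 to 74, a ratio of 8.39 (4.19 to 19.1). These genes stood beside others that fell. ZNF431 had 15.3 CPM in shCont and 9.43 in shp16, ZNF253 5.50 and 3.26, and ZNF43 26.7 and 20.5. ZNF730, which was not tested, had no read in shCont, 7, 14 and 9 in shp16 and 5, 12 and 8 in shp16+shATR.

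The members called lower fell by less and from higher levels. Their median CPM was 8.86 in shCont and 5.50 in shp16, while the members called higher went from a median of 0.237 to 3.47, and 16 of those 26 had a mean under 1 CPM in shCont. A log2 change beyond 1 was seen in 7 of 31 falls and 25 of 26 rises. ZNF382, a KRAB zinc finger gene described as a tumour suppressor, had the largest fall, with 23, 33 and 27 reads in shCont, 3, 7 and 7 in shp16 and 4, 3 and 0 in shp16+shATR (log2 fold change −2.25 in shp16, standard error 0.53, adjusted p = 0.0156 by edgeR's quasi-likelihood test). ZNF829, in the same block 10, had 4.77, 5.03 and 6.14 CPM in shCont, 2.55, 1.71 and 1.61 in shp16 and 1.73, 1.95 and 2.41 in shp16+shATR (log2 fold change −1.44, adjusted p = 0.00180). In ZNF813, the values were 5.66, 5.91 and 6.14 in shCont, 2.70, 2.70 and 2.29 in shp16 and 2.94, 2.51 and 2.51 in shp16+shATR (log2 fold change −1.20, adjusted p = 0.000876). The knockdown libraries of these genes lay apart from all shCont libraries. The call of ZNF382 in shp16 was lost without shCont replicate 2, shp16 replicate 1 or shp16 replicate 2, where its log2 fold change was −2.06, −1.98 and −2.40. ZNF441, in block 3, had 15.6, 20.9 and 21.9 CPM in shCont and 8.00, 7.82 and 9.75 in shp16 (log2 fold change −1.19, adjusted p = 0.000570). ZNF432 fell by 1.03 on the log2 scale, from a mean of 11.5 CPM, and ZNF527 by 1.03, from 3.98 to 1.94 CPM.

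**Figure D4:**
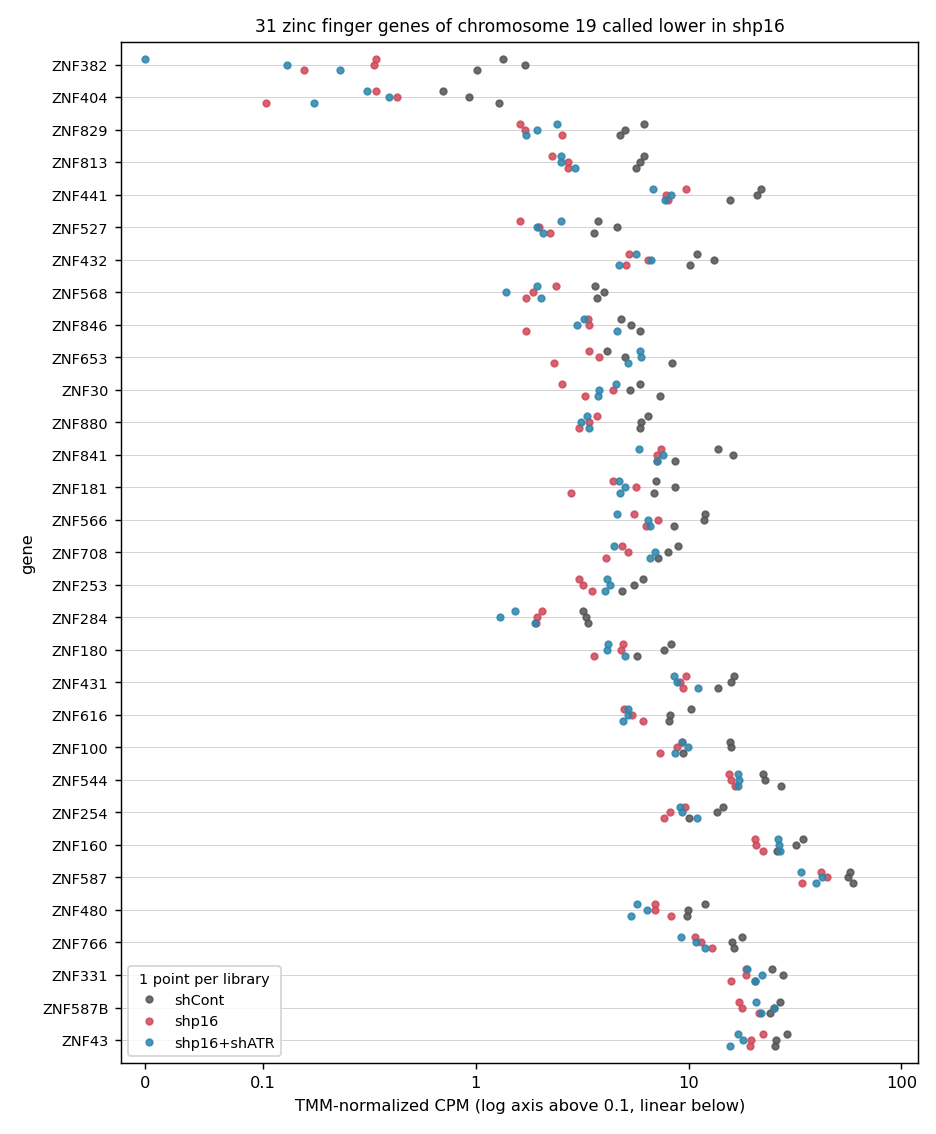
CPM in each of the 9 libraries (horizontal axis, logarithmic above 0.1) for the 31 members called lower in shp16, ordered by fitted fold change, with 1 point per library in grey for shCont, red for shp16 and blue for shp16+shATR. The red points lie to the left of the grey points, and 29 of these genes had a mean above 1 CPM in every group.

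The number of falls was less stable than the number of rises. Without the library labelled shCont replicate 1, 28 members were called higher (25 of them shared with the 26) and 46 lower (29 shared with the 31), and without the library labelled shp16 replicate 1 it was 27 higher (24 shared) and 14 lower (14 shared). The share of all genes called in either direction moved with these counts, from 14.8% with all libraries to 25.9% without the first library and 8.95% without the second. Leaving out shCont replicate 2 left 13 falls, shCont replicate 3 left 20, shp16 replicate 2 left 14, shp16 replicate 3 left 10, and shp16+shATR replicates 2 and 3 left 20 and 19. The shares of all genes called in these fits were, in the same order, 10.1%, 14.3%, 8.40%, 8.29%, 10.9% and 11.4%. A fit of the 2 groups alone called 24 higher and 14 lower, with 7.54% of all genes called.

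In block 10, 5 of 21 tested members were called lower in shp16 against shCont (ZNF382, ZNF829, ZNF527, ZNF568 and ZNF566) and none higher. Fitted log2 fold changes were below 0 for 18 of the 21, with a median of −0.54, beside 639 of 900 for the other genes of chromosome 19. The 3 above 0 were ZNF420, ZNF571 and ZNF573, at 0.72, 0.47 and 0.59. Its summed level was 137, 175 and 188 CPM in shCont, 117, 125 and 120 with the p16 hairpin and 117, 122 and 120 with both, so that the library labelled shCont replicate 1 lay between its own group and the others. In shp16+shATR against shCont, 11 members of this block were called lower. The summed level over all 272 members was 1864 ± 35.7 CPM in shCont, 1644 ± 19.1 with the p16 hairpin and 1609 ± 43.3 with both (SD, n = 3 libraries), and shCont did not overlap the others. In bulk RNA, fewer cells expressing a gene and less RNA per cell cannot be told apart.

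Adding the ATR hairpin to the p16 hairpin gave no member a call. In shp16+shATR against shp16, 0 of 205 members were called higher and 0 lower by edgeR's quasi-likelihood test (lowest adjusted p = 0.0554, for ZNF542), beside 2.73% of all genes called higher and 3.49% called lower. At an unadjusted p under 0.05 there were 18 members, 4 higher and 14 lower. DESeq2 called 1 higher and 1 lower, with 9.56% of all genes called. Without the library labelled shCont replicate 1, which belongs to neither group, 5 members were called higher and 6 lower, as in a fit of the 2 groups alone. The calls over all genes rose in the same fits, from 6.22% to 19.9% without that library and to 18.1% in the 2 groups alone, so the members' 11 calls lay under that share. These 11 were named after their values were seen. ZNF653 rose by 0.84 on the log2 scale, and ZNF414, ZNF114, ZNF160 and ZNF580 by 0.31 to 0.41, while ZNF726, ZNF599, ZNF542, ZNF765, ZNF473 and ZNF317 fell by 0.28 to 0.79.

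**Figure D5:**
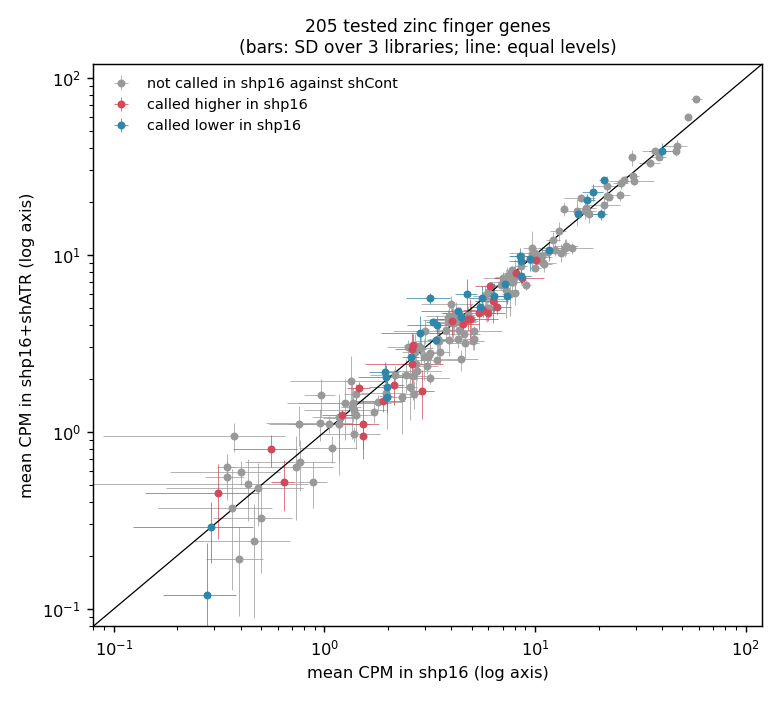
Mean CPM in shp16+shATR (vertical, log axis) against mean CPM in shp16 (horizontal, log axis) for the 205 tested members, with bars of 1 SD over 3 libraries, red for the 26 called higher and blue for the 31 called lower in shp16 against shCont, and a line of equal levels. The points follow the line, and no member was called different between these 2 groups.

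The genes that were silent in shCont had close levels in both groups with the p16 hairpin. ZNF468 stood at 8.07 ± 0.787 CPM with the p16 hairpin and 7.91 ± 0.311 with both, ZNF320 10.1 ± 1.23 and 9.33 ± 0.827, and ZNF28 4.03 ± 0.115 and 4.22 ± 0.804 (SD, n = 3 libraries). For ZNF816 it was 1.46 ± 0.177 and 1.78 ± 0.145, and for ZNF71 6.57 ± 1.15 and 5.07 ± 0.519. The fitted log2 fold changes between the 2 groups were −0.03 ± 0.18 for ZNF468, −0.11 ± 0.19 for ZNF320 and 0.08 ± 0.21 for ZNF28 (standard errors). Over the 26 members called higher in shp16 they ranged from −0.76 for ZNF530 to 0.52 for ZNF208, 18 of them below 0, and over the 31 called lower the median was 0.02. These are descriptions, since the shp16 libraries served in both comparisons.

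Against shCont, the double knockdown had 28 of 205 members called higher and 44 lower, beside a background of 10.9% and 12.7%, and a median log2 fold change of −0.25 over the tested members and −0.02 over all genes. This comparison shares its control libraries with that of shp16, so the values are given side by side and not as a second observation. ZNF468 was 493 times higher in shp16+shATR than in shCont (95% exact counting interval 88.1 to 19518), ZNF320 288 times (79.4 to 2384) and ZNF808 21.1 times (10.9 to 46.8). ZNF382 fell by 3.46 on the log2 scale, ZNF441 by 1.35, ZNF829 by 1.38, ZNF575 by 1.35, ZNF296 by 1.22 and ZNF813 by 1.15. The call of ZNF296 was lost in 5 of 18 alternative settings, among them each shp16+shATR library left out and the library labelled shCont replicate 1 left out. Without the library labelled shCont replicate 1, 32 members were called higher and 66 lower, and without the library labelled shp16 replicate 1, 30 and 43. Over all genes 23.6% were called with all libraries, 33.3% without the first and 24.2% without the second. Leaving out shp16+shATR replicate 1, 2 or 3 left 25, 23 and 27 called lower, with 14.5%, 14.6% and 14.9% of all genes called in either direction.

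Several members with a described role were not called in shp16 against shCont. ZNF91, which silences SVA elements, had 11.6 ± 1.87 CPM in shCont, against 10.8 ± 0.216 with the p16 hairpin and 9.79 ± 1.24 with both. ZNF93, a repressor of LINE elements, had 5.91 ± 0.692, 3.92 ± 0.499 and 3.31 ± 0.616, and was called lower in shp16+shATR against shCont alone (log2 fold change −0.84, adjusted p = 0.00919 by edgeR's quasi-likelihood test, against 0.0610 in shp16). ZNF274, which binds zinc finger genes themselves and recruits SETDB1 to them, had 5.35 ± 0.173 CPM in shCont, 7.32 ± 0.903 with the p16 hairpin and 7.47 ± 1.12 with both (SD, n = 3 libraries). Its groups did not overlap between shCont and shp16, but its adjusted p was 0.0898 in that comparison and 0.0536 for shp16+shATR against shCont (edgeR's quasi-likelihood test). ZNF304, ZNF350 and ZNF224 had 8.28, 6.00 and 1.35 CPM in shCont and 7.64, 4.45 and 1.25 in shp16 and passed in neither comparison with shCont. ZNF331, an imprinted gene, was called lower in shp16, from 24.4 to 17.7 CPM (log2 fold change −0.46, adjusted p = 0.0402), and ZNF175 in shp16+shATR, from 12.6 to 8.86 CPM (log2 fold change −0.51, adjusted p = 0.0182). The call of ZNF331 in shp16 was lost in 12 of 18 alternative settings, that of ZNF93 without shp16+shATR replicate 2, and that of ZNF175 without shCont replicate 2 or shp16+shATR replicate 1.

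The 5 members with the highest mean FPKM over the 9 libraries were not called in shp16. Per length, ZNF787, ZNF114 and ZNF580 had 24.7, 24.6 and 24.5 FPKM in shCont and 24.2, 23.4 and 20.2 in shp16, and ZNF146 and ZNF121 had 18.98 and 15.4 in shCont and 14.02 and 15.3 in shp16. At least 1 FPKM was reached by 123 members in shCont, by 127 with the p16 hairpin and by 120 with both.

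Genes of the machinery through which KRAB zinc finger proteins repress were read from a list of 41, all tested. In shp16 against shCont, 4 were called higher (9.76%) and 1 lower (2.44%), with a median log2 fold change of 0.13, beside the 7.23% and 7.59% of all genes. CBX5, a heterochromatin protein, rose from 42.5 to 84.2 CPM (log2 fold change 0.99, standard error 0.14, adjusted p = 0.000894 by edgeR's quasi-likelihood test), the methyltransferase DNMT3B from 3.81 to 7.08, and the deacetylase complex members HDAC1 and RBBP4 from 166 to 216 and from 112 to 147. ATF7IP2, a SETDB1 partner, fell from 10.5 to 6.81. TRIM28 was at 483 CPM in shCont, 424 with the p16 hairpin and 382 with both and was called in no comparison, as was SETDB1 with 21.5, 22.6 and 21.6. In shp16+shATR against shp16, 0 of the 41 were called higher and 4 lower (9.76%), beside 2.73% and 3.49% of all genes, namely DNMT1 (from 291 to 209 CPM), its recruiter UHRF1 (from 56.0 to 34.3), SUMO3 and MTA2. In shp16+shATR against shCont, 6 were called higher (14.6%) and 4 lower (9.76%), beside 10.9% and 12.7% of all genes. Their part in the levels of the members was not tested.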

How the data were processed

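RNA from SKMEL28 cells was sequenced in 9 libraries, 3 each of shCont, shp16 and shp16+shATR. The authors deposited raw read counts per gene, without normalization, and FPKM values, which equal the counts divided by gene length and library total in every column (largest relative difference 4.22e-07). Library preparation, sequencing and read processing were done by a sequencing company, and the submitters' processing notes list STAR 2.6.1, DESeq2 and GRCh38. The coordinates of the deposited tables are not those of GRCh38, since 0 of 269 members matched by identifier had the same start there. The 3 shp16+shATR columns of counts share a name, and they were tied to the FPKM columns by these values.

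Total counts were between 17314662 and 23588174. The deposited counts of all 9 libraries were fitted with edgeR 4.0.16 (R 4.3.3), using its TMM factors, its filter on low counts (15776 genes left) and its quasi-likelihood test, with 1 coefficient per group, at a Benjamini-Hochberg adjusted p of 0.05. Groups came from the sample titles, and replicate numbers do not pair the libraries. For members called higher with at most 20 reads over shCont, ratios of summed counts carry an exact 95% binomial interval, or a bound against 3 counts where there were none. The steps were also run on simulated counts with 1 spread for all genes and no outlying library. That setting is simpler than these data and cannot speak to the stability of the calls here. Alternatives were DESeq2 1.42.0, upper-quartile factors, library size only, no filter, at least 10 counts in every library, a fit of the 2 groups alone, replicate number as a block, limma 3.58.1 on log2 FPKM with 1 or 0.1 added, an adjusted p of 0.01, and each library left out.

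The members and all lists were chosen with earlier results of these data known. Genes named are ZNF468, ZNF320 and ZNF28, members within 300000 bases of ZNF468, the 6 largest rises and falls per comparison (called, at least 1 CPM, no overlap), the 5 highest by FPKM, members with a described role or at the floor, called machinery genes with TRIM28 and SETDB1, and CDKN2A and ATR. Other members were named after their values were seen. Promoters are from RefSeq, transcripts from GENCODE 29 (python 3.11.15, biopython, pandas 2.3.3). Protein features were not analysed here, and 1 marker gene is not reported here.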

Additional observations from a re-analysis of the deposited data

How the results depend on the processing

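Every member named by rule and called kept its direction in all alternatives run. The largest changes had been picked in these data for no overlap between groups, so a kept direction was near certain beforehand and is no separate support. The call changed in 4 of 18 members named with a call in shp16 against shCont and 6 of 20 in shp16+shATR against shCont. Among those named without a call, 6 of 15, 4 of 13 and, in shp16+shATR against shp16, 12 of 33 changed sign in at least 1 alternative. In shp16 against shCont the calls higher numbered 24 to 28 with each library left out and 11 with at least 10 counts in every library, which leaves out the genes near 0 in shCont. The calls lower numbered 10 to 46 with a library left out, 14 with only the 2 groups compared, 16 with limma on log2(FPKM + 0.1) and 8 at an adjusted p under 0.01. Over all genes, 8.29% to 25.9% were called with a library left out, 7.54% with the 2 groups alone and 12.7% with that limma fit. The median log2 fold change of the tested members, −0.20, was −0.063 without a filter on low counts and −0.10 with limma on log2(FPKM + 1). In shp16+shATR against shp16, 1 member was called higher and 1 lower by DESeq2 and without a filter, 5 and 6 with only the 2 groups compared, and 0 to 5 and 0 to 6 with a library left out, and the median was −0.027 with upper-quartile factors and −0.11 to −0.042 with a library left out. In shp16+shATR against shCont, 12 were called higher with at least 10 counts in every library and 21 lower at an adjusted p under 0.01, the calls lower numbered 23 to 66 with a library left out, and the median was −0.15 both without a filter and with limma on log2(FPKM + 1). With the replicate block, 25 members were called higher and 22 lower in shp16 against shCont. Same-numbered libraries did not deviate together (correlations from −0.15 to 0.168), so the numbers do not pair them. The cause of these differences was not tested. A gene with a few reads in shCont has a wide ratio, and depth limits it.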
